A study of Mus musculus with 6 samples.

Results

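The potassium channel genes described here were the annotated mouse genes whose symbol starts with Kcn, continues with 1 or more letters and ends in a number, and whose mean level over the 6 libraries was at least 1 TPM (a length-corrected share of all transcripts in a library). They were thus chosen by name and by their level over all 6 libraries together, not by the difference between the groups. The name matched 92 genes, and 73 of them passed the level, out of 18893 annotated genes that passed the same level and 55359 annotated genes in all. The libraries were made from the whole brain of mouse embryos at E18.5. Of these, 3 were from embryos with the S156A form of PME-1, a methylesterase that acts on the catalytic subunit of protein phosphatase 2A, in which serine at the labelled position is replaced by alanine, and 3 were from embryos with wild-type PME-1 (WT). Each library was made from total RNA of 3 brains collected in 1 tube. Nothing used here gives the strain, the sex, the litters or the number of mutant copies that S156A embryos carried. The comparison asks how the S156A form changes gene expression in the brain.

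Potassium channels let potassium leave or enter cells and so set the resting potential, end action potentials and shape firing. Pore subunits fall into voltage-gated channels (subfamily letters a to d, f, g, h, q, s and v), channels gated by intracellular calcium or sodium (ma, n, t and u), inward rectifiers (j) and two-pore-domain leak channels (k), and auxiliary subunits (ab, e, ip and mb) alter their trafficking or gating. In the developing brain these genes are used mainly by neurons, but some mark other cells: Kcnj10 serves astroglial potassium uptake, Kcnj8 is a pericyte gene, and Kcnj13 and Kcne2 belong to the choroid plexus epithelium.

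Among the 73 genes, limma called 1 changed at an adjusted p below 0.05: Kcnc4, a voltage-gated pore subunit of the Shaw family, fell in S156A brain to 0.339 times its WT level. The same rule called 30 of the 18893 genes tested, or 0.159%, with 0.0741% lower and 0.0847% higher in S156A. Without that threshold, more of the potassium channel genes stood lower in S156A than in WT. No value overlapped between the groups for 21 genes that were lower in S156A, or 28.8% of the 73, against 7.05% of all tested genes, and for 5 genes that were higher, or 6.85%, against 13.7% of all tested genes. Of these genes only Kcnc4 passed the test, and no test was made of the group of genes as a whole. In bulk tissue, fewer cells of a type and less RNA per cell cannot be told apart.

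The libraries were not alike in tissue content. Estimated depth was 3.24 to 4.14 aligned gigabases in S156A and 3.15 to 3.37 in WT, and 18191 to 19270 genes had at least 1 TPM. The summed level of 11 skeletal muscle genes was 8297, 69.3 and 58.2 TPM in the S156A libraries and 19.6, 1018 and 7859 TPM in the WT libraries, so that S156A library 1 and WT library 3 were rich in muscle RNA; of these 11 genes Tnnc2 was listed at 0 in at least 1 library. The 8 neuronal markers summed to 2905 to 4115 TPM in S156A and 3799 to 5141 TPM in WT, and none was at 0. Ppme1, which encodes PME-1, differed by -0.09 (log2, limma adjusted p = 0.80), and the level of a point mutant's transcript does not check the genotype.

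Kcnc4 encodes a fast-inactivating, high-threshold channel that helps to repolarise firing neurons. In the files it spans chromosome 3, 107345619 to 107366868, on the minus strand (ENSMUSG00000027895.11), and no other tested gene overlaps it. Its level was 10.4, 9.85 and 9.997 TPM in the S156A libraries, against 31.6, 30.1 and 27.6 TPM in the WT libraries. All S156A values thus lay far below all WT values, and the libraries within each group were close. The means were 10.1 ± 0.306 TPM in S156A and 29.8 ± 1.99 TPM in WT (SD, n = 3 each), a ratio of 0.339. The log2 difference, S156A minus WT, on the log2(TPM + 1) scale was -1.47 with a standard error of 0.13 (limma, Benjamini-Hochberg adjusted p = 0.028). The groups stayed apart with any 1 library left out, at log2 differences of -1.52 to -1.43, but the call was kept only without WT library 3: the adjusted p was 0.0738, 0.163 and 0.173 without S156A library 1, 2 and 3, and 0.152, 0.227 and 0.0441 without WT library 1, 2 and 3. Without both muscle-rich libraries the difference was -1.54 (limma adjusted p = 0.0669).

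The Kcnc family supports fast spiking, and no other member of it passed the test. Kcnc1, the most abundant member, had 23.1, 20.8 and 25.7 TPM in S156A and 24.4, 31.4 and 20.3 TPM in WT, and its groups overlapped. In loci assembled from the reads, described further on, they did not overlap, at 27.9, 25.7 and 27.8 TPM in S156A and 35.3, 41.8 and 32.3 TPM in WT (log2 difference -0.41, limma adjusted p = 0.24). Kcnc2 was below the level for inclusion. The summed level of the family was 50.8 ± 3.78 TPM in S156A and 78.8 ± 8.82 TPM in WT (SD, n = 3 each). This sum includes Kcnc4, with means of 10.1 TPM in S156A and 29.8 TPM in WT, and most of the difference came from it.

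**Figure D1:**
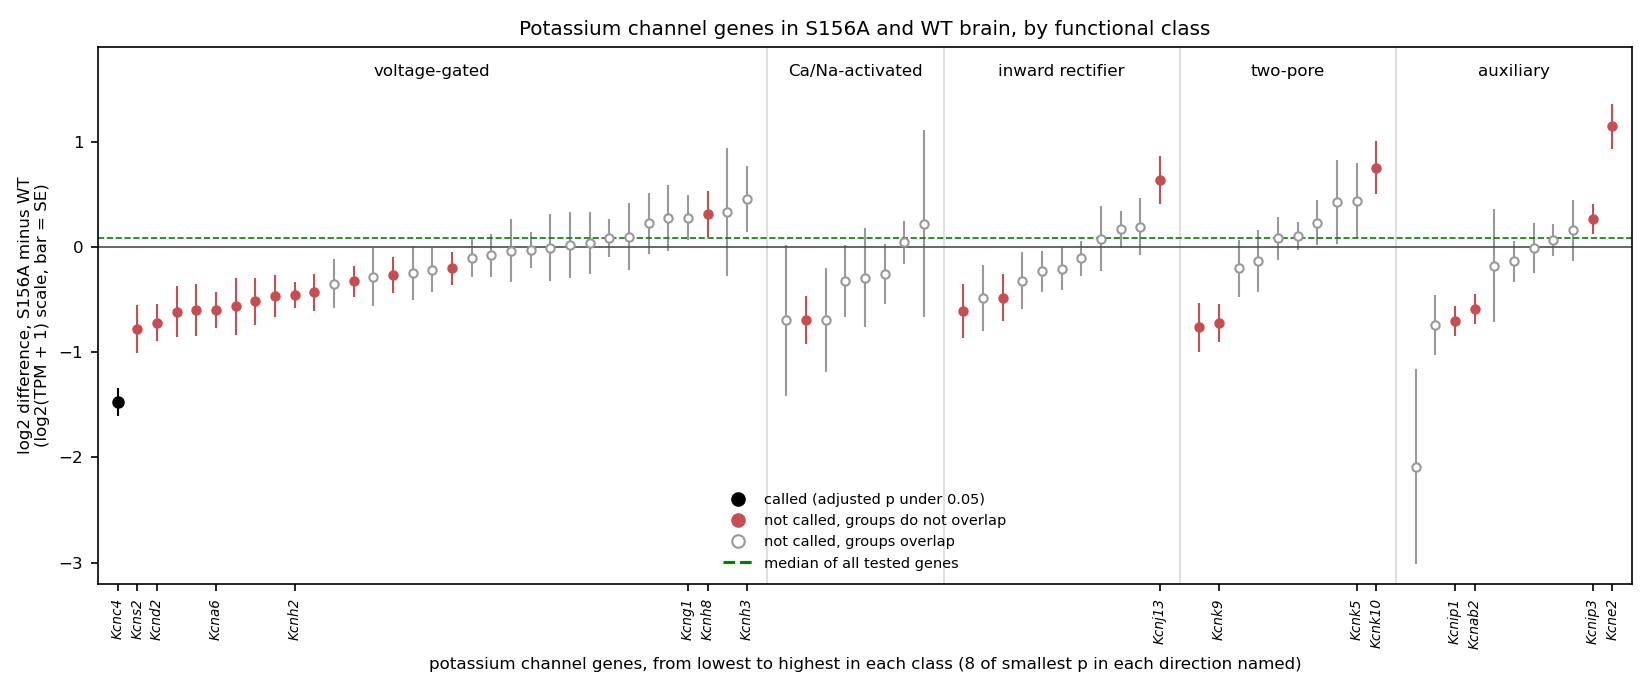
Log2 difference, S156A minus WT, of each of the 73 potassium channel genes on the log2(TPM + 1) scale (vertical axis), with its standard error as a bar, grouped by functional class along the horizontal axis and running from lowest to highest within each class; the 8 genes of smallest p in each direction are named. Kcnc4, at -1.47, is the black point that passed the test; filled points are genes whose groups do not overlap, 21 below 0 with Kcnc4 included and 5 above it, and the dashed line is the median of all tested genes, 0.09.

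Over the 73 genes the median log2 difference was -0.20, with 47 genes below 0 and 26 above it; over all tested genes the median was 0.09, and 38.3% of genes were below 0. The median of the 73 was -0.27 to -0.13 with 1 library left out, with -0.13 without S156A library 3 or WT library 1, and stayed below 0 in every alternative run. An unadjusted limma p under 0.05 was reached by 15 genes lower in S156A, or 20.5%, and by 3 higher, or 4.11%. With 1 library left out the members lower by this measure numbered 9 (without S156A library 1, WT library 1 or WT library 2), 12 (without S156A library 3), 14 (without WT library 3) or 18 (without S156A library 2), and those higher 1 to 3, with 1 without S156A library 2 or WT library 1. With all 6 libraries the shares over all tested genes were 5.5% lower and 8.41% higher. With 1 library left out, the counts over all 18893 tested genes moved too. They were 863 lower and 1560 higher without S156A library 1, 1191 and 1084 without S156A library 2, and 826 and 1215 without S156A library 3. Without WT libraries 1, 2 and 3 they were 659, 647 and 1237 lower and 1165, 895 and 1890 higher. The split of the 73 genes also depends on scaling. It was 20 lower and 3 higher after scaling by trimmed means and 19 lower and 1 higher after quantile normalization. Over all tested genes 1039 lower and 1589 higher became 1367 lower and 1106 higher by trimmed means and 1342 lower and 1068 higher by quantiles. The summed level of the 73 genes was 759, 948 and 806 TPM in the S156A libraries, against 1033, 1014 and 933 TPM in the WT libraries, so that S156A library 2 reached above the lowest WT library.

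Levels spanned a wide range. The 10 most abundant genes held 43.2% of the summed TPM; 48 genes averaged at least 5 TPM, 31 at least 10, 15 at least 20 and 3 at least 50. Among these 3 were Kcnmb4 at 52.6 TPM, the neuronal auxiliary subunit of the large-conductance calcium-activated channel, and Kcnk2 at 50.9 TPM, a two-pore leak channel opened by stretch and lipids. Neither was apart between the groups. Kcnmb4 had 44.3, 56.6 and 60.7 TPM in S156A and 58.0, 47.8 and 48.2 TPM in WT. Kcnk2 had 45.1, 69.8 and 43.5 TPM in S156A and 54.8, 51.0 and 41.2 TPM in WT. Of the 73 genes, 66 had at least 1 TPM in all 6 libraries and none was at 0 in any. Just inside the level for inclusion were Kcns3 at 1.12, Kcnk5 at 1.49 and Kcnj14 at 1.51 TPM, and just outside it Kcnj5 at 0.957, Kcng4 at 0.646 and Kcnj16 at 0.592 TPM. For Kcnn4 the WT mean alone was above 1 TPM, through 7.26 TPM in WT library 3, and for Kcns3 the S156A mean alone.

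The 33 voltage-gated pore subunits summed to 383 ± 52.0 TPM in S156A and 468 ± 32.9 TPM in WT (SD, n = 3 each). The sums overlapped, as S156A library 2 had 443 TPM and WT library 3 had 431 TPM. Of the 33 genes, 14 were lower in S156A without overlap, or 42.4%, against 7.05% of all tested genes. Another 1 was higher without overlap, or 3.03%, against 13.7% of all tested genes, and 18 overlapped. Only Kcnc4 passed the test. Kcnd2 encodes the main somatodendritic A-type channel, of the Shal family. It had 19.7, 27.3 and 26.1 TPM in S156A and 45.3, 43.5 and 33.5 TPM in WT (log2 difference -0.72, SE 0.18, limma adjusted p = 0.18). The highest S156A value lay below the lowest WT value. Its relative Kcnd3 had 19.4, 25.8 and 19.0 TPM in S156A and 35.4, 25.8 and 17.9 TPM in WT, which overlapped.

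Kcna6 was the most abundant of the Shaker-type genes, whose channels sit on axons and nerve terminals. It had 17.9, 26.0 and 21.9 TPM in S156A and 34.6, 36.6 and 29.2 TPM in WT (log2 difference -0.60, SE 0.17, limma adjusted p = 0.22). Kcna1, which ends 61944 bases from Kcna6 on the same strand, had 1.83, 4.31 and 2.37 TPM in S156A and 2.56, 1.82 and 3.102 TPM in WT. So Kcna6 was apart between the groups and its neighbour was not. Among the others, Kcna4 was lower without overlap, and Kcna2, Kcna3 and Kcna5 overlapped.

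Kcnh2 encodes the ether-à-go-go-related channel, which recovers quickly from inactivation and opposes repeated firing. Its level was 25.1, 23.2 and 24.5 TPM in S156A and 35.2, 35.8 and 30.1 TPM in WT (log2 difference -0.45, SE 0.12, limma adjusted p = 0.20). The spread within S156A was small, at an SD of 0.979 TPM about a mean of 24.3 TPM. Of the Elk branch of the same family, Kcnh3 and Kcnh8 had higher means in S156A, while Kcnh4, the most abundant, averaged 18.1 ± 1.496 TPM in S156A and 21.7 ± 5.83 TPM in WT (SD, n = 3 each), which overlapped. Kcnh8 had 4.77, 3.91 and 3.75 TPM in S156A and 3.38, 3.30 and 2.76 TPM in WT, with no overlap here and an overlap in the assembled loci (log2 difference 0.31, SE 0.22, limma adjusted p = 0.57). Kcnh3 had 11.3, 8.77 and 8.22 TPM in S156A and 3.86, 7.15 and 9.87 TPM in WT; its groups overlapped, and its 2 highest libraries were the muscle-rich ones (log2 difference 0.45, SE 0.32, limma adjusted p = 0.57).

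The silent subunits, from subfamilies f, g, s and v, form no channel alone and modify the Shab channels. Kcns2 had 2.23, 2.93 and 3.56 TPM in S156A and 5.85, 6.08 and 5.07 TPM in WT (log2 difference -0.78, SE 0.23, limma adjusted p = 0.23). Kcns1, the most abundant of its subfamily at 5.06 TPM, Kcnf1 at 8.76 TPM and Kcng2 were likewise lower in every S156A library than in any WT library. None of these passed the test. Kcng1 had 7.10, 10.5 and 7.37 TPM in S156A and 7.34, 6.64 and 5.86 TPM in WT, which overlapped (log2 difference 0.28, SE 0.21, limma adjusted p = 0.61). Kcnv1, at a mean of 5.43 TPM, and Kcns3 overlapped too. Kcnh1 and Kcnh6, from the same family as Kcnh2, were lower in S156A without overlap. Kcnh6 overlapped in the assembled loci, at 1.68, 13.1 and 8.85 TPM in S156A and 9.61, 7.27 and 4.45 TPM in WT (log2 difference -0.12).

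**Figure D2:**
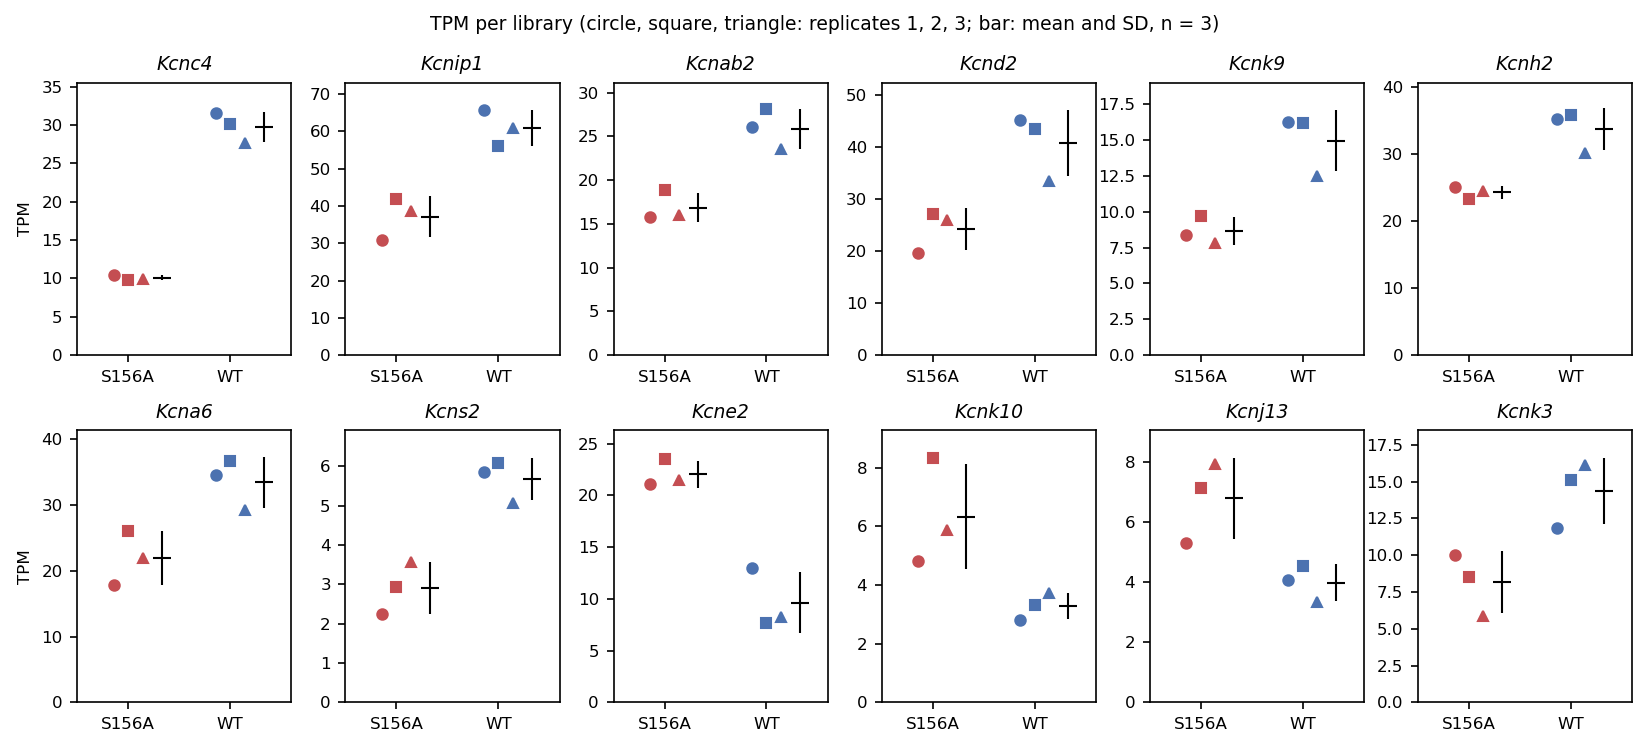
TPM in each library (vertical axis, from 0) of 12 potassium channel genes, S156A on the left and WT on the right of each panel, with circle, square and triangle for replicates 1, 2 and 3 and a bar for the mean and SD (n = 3). The values are those of the annotated rows, where no S156A value overlaps a WT value in these panels (Kcnk10 and Kcnj13 overlap in the assembled loci); S156A points lie lower except in Kcne2, Kcnk10 and Kcnj13, where they lie higher, and Kcnc4 is the only one of the 12 that passed the test.

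Of the 8 calcium- and sodium-activated pore subunits, 1 was apart between the groups, lower in S156A (12.5%, against 7.05% of all tested genes). Kcnt1, a sodium-activated channel, had 19.1, 23.5 and 23.1 TPM in S156A and 45.3, 41.0 and 24.9 TPM in WT (log2 difference -0.70, SE 0.23, limma adjusted p = 0.27). WT library 3 lay close to the S156A libraries in this row but was the highest of the 6 in the assembled loci, at 28.1, 36.8 and 30.0 TPM in S156A and 48.0, 40.5 and 49.96 TPM in WT. The class summed to 67.3, 73.6 and 55.8 TPM in S156A and 103, 85.2 and 97.5 TPM in WT, which did not overlap, but part of the WT sum came from the small-conductance gene Kcnn1, at 27.7 TPM in WT library 1 against 5.05 to 10.1 TPM in the other 5, and from Kcnma1, at 16.3 TPM in WT library 3. Kcnma1, the large-conductance pore, had 12.6, 6.99 and 1.17 TPM in S156A and 1.89, 1.97 and 16.3 TPM in WT. Kcnn2, the most abundant small-conductance gene at a mean of 14.1 TPM, and Kcnn3 overlapped between the groups.

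The 11 inward rectifiers summed to 79.9 ± 11.6 TPM in S156A and 87.6 ± 7.08 TPM in WT (SD, n = 3 each). Kcnj9 and Kcnj12 were lower in S156A without overlap (18.2%, against 7.05% of all tested genes). Kcnj13 was higher (9.09%, against 13.7% of all tested genes) and the other 8 overlapped. Kcnj9, a G-protein-gated subunit, had 3.78, 5.62 and 5.81 TPM in S156A and 7.71, 10.7 and 6.53 TPM in WT. Kcnj10, which starts 11891 bases beyond it on the other strand, had 7.74, 10.1 and 10.1 TPM in S156A and 12.3, 11.9 and 8.74 TPM in WT. Kcnj10 thus overlapped, while the 9 astrocyte markers summed to 1715 to 2557 TPM in S156A and 1013 to 1093 TPM in WT; without the most abundant of them the other 8 summed to 522 to 700 TPM in S156A and 455 to 515 TPM in WT. Of the 9, 6 were higher and 3 lower in S156A, and only Gfap was called. Without overlap 4 were higher and 1 lower, or 44.4% and 11.1%, against 13.7% and 7.05% of all tested genes. Kcnj3, the most abundant inward rectifier at 15.9 TPM, also overlapped.

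The 10 two-pore-domain channels had almost the same sum in the groups, at 113 ± 18.0 TPM in S156A and 114 ± 3.66 TPM in WT (SD, n = 3 each), with genes apart in both directions. Kcnk9 and Kcnk3 encode acid-sensitive leak channels that pair with each other. Kcnk9 had 8.35, 9.71 and 7.82 TPM in S156A and 16.2, 16.2 and 12.5 TPM in WT (log2 difference -0.72, SE 0.18, limma adjusted p = 0.18). Kcnk3 had 10.05, 8.53 and 5.90 TPM in S156A and 11.9, 15.1 and 16.1 TPM in WT. In both genes each S156A library was below each WT library. Kcnk10, a relative of Kcnk2, had 4.81, 8.31 and 5.88 TPM in S156A and 2.82, 3.31 and 3.71 TPM in WT, with all S156A values higher (log2 difference 0.75, SE 0.25, limma adjusted p = 0.27). Its assembled loci overlapped, at 11.01, 21.6 and 15.3 TPM in S156A and 13.1, 13.1 and 10.4 TPM in WT. Kcnk5, an alkaline-activated channel, had 2.83, 1.16 and 1.61 TPM in S156A and 0.585, 0.872 and 1.91 TPM in WT, which overlapped (log2 difference 0.44, SE 0.36, limma adjusted p = 0.62). Kcnk13, a microglial channel, had 1.498, 2.60 and 1.35 TPM in S156A and 2.58, 1.48 and 2.17 TPM in WT, while the 11 microglial markers, all higher in S156A and 4 of them called, summed to 459 to 557 TPM in S156A and 148 to 245 TPM in WT.

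**Figure D3:**
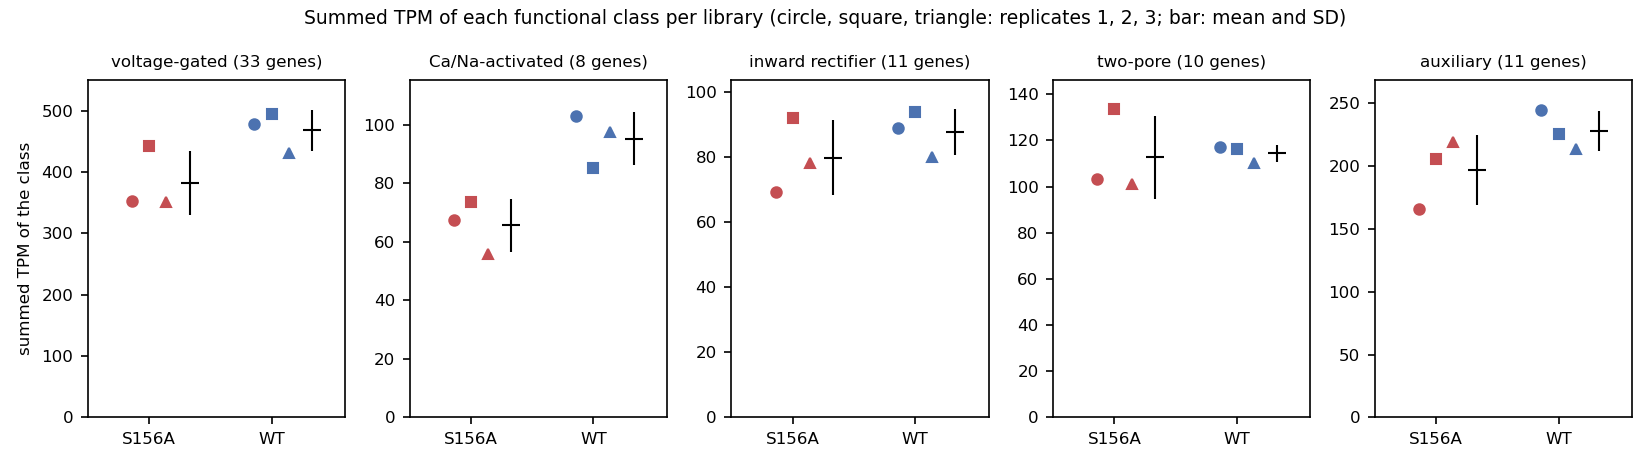
Summed TPM of the members of each functional class per library (vertical axis, from 0), S156A on the left and WT on the right of each panel, with circle, square and triangle for replicates 1, 2 and 3 and a bar for the mean and SD (n = 3). The calcium- and sodium-activated class does not overlap, at 55.8 to 73.6 TPM in S156A and 85.2 to 103 TPM in WT, and the two-pore class has nearly equal means, 113 TPM in S156A and 114 TPM in WT.

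Among the 11 auxiliary subunits none passed the limma test, and the groups of 7 overlapped. An unadjusted limma p under 0.05 was reached by 3 lower, or 27.3%, and 1 higher, or 9.09%. Over all tested genes these shares were 5.5% and 8.41%. Without overlap 2 were lower and 2 higher in S156A, or 18.2% each, against 7.05% lower and 13.7% higher over all tested genes. Kcnip1 encodes a calcium-binding subunit of the Shal channels. It had 31.0, 41.9 and 38.7 TPM in S156A and 65.8, 56.1 and 60.8 TPM in WT (log2 difference -0.70, SE 0.14, limma adjusted p = 0.11). Kcnip1 and its pore partner Kcnd2 were thus both lower in every S156A library than in any WT library. Kcnip3, another member of that subfamily that also acts as a calcium-regulated repressor, had 24.9, 25.4 and 30.4 TPM in S156A and 24.0, 23.0 and 19.6 TPM in WT, higher without overlap (log2 difference 0.27, SE 0.14, limma adjusted p = 0.45). Kcnip2 had 9.83, 15.6 and 20.5 TPM in S156A and 30.8, 27.0 and 19.4 TPM in WT, which overlapped. Kcnab2, a cytosolic subunit of the Shaker channels, had 15.8, 18.8 and 16.0 TPM in S156A and 26.0, 28.1 and 23.5 TPM in WT (log2 difference -0.59, SE 0.14, limma adjusted p = 0.17). Its relatives Kcnab1 and Kcnab3 overlapped.

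Kcne2 and Kcnj13, the choroid plexus pair, were both higher in every S156A library than in any WT library in the annotated rows, and Kcne2 alone in the assembled loci, where Kcnj13 had 5.30 TPM in S156A library 1 and 5.53 TPM in WT library 2. Kcne2, a single-span subunit that partners several pores, had 21.1, 23.5 and 21.5 TPM in S156A and 13.0, 7.63 and 8.25 TPM in WT, means of 22.0 ± 1.28 TPM in S156A and 9.64 ± 2.95 TPM in WT (SD, n = 3 each; log2 difference 1.15, SE 0.21, limma adjusted p = 0.094). Kcnj13 had 5.30, 7.12 and 7.94 TPM in S156A and 4.06, 4.55 and 3.35 TPM in WT (log2 difference 0.64, SE 0.23, limma adjusted p = 0.30). Neither passed the test. Beside them, 8 of 10 choroid plexus markers were abundant enough to test, all 8 were higher in S156A and none was called by limma. An unadjusted limma p under 0.05 was reached by 5, or 62.5%, against 8.41% higher over all tested genes. These 10 markers summed to 2360 to 3485 TPM in S156A and 1142 to 1549 TPM in WT, and none was at 0. Without the most abundant of them the other 9 summed to 150.3 to 183 TPM in S156A and 78.4 to 114 TPM in WT. The part of choroid plexus content in the values of Kcne2 and Kcnj13 was not tested. Kcnj13 also lies within Gigyf2 (38.6 TPM on average) on the opposite strand, and whether the counting used strand is not stated.

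For 4 genes that stood apart between the groups, the 250 bases before the outermost start of transcription in RefSeq are shown, in the gene's own direction, with matches to the motifs below in capitals. The positions are those of GRCm38.p6, a different build from that of the files. Kcne2 and Kcnj13 are the choroid plexus pair, and Kcnd2 and Kcnip1 the pore and auxiliary subunit of one channel. The windows are chr16:92292139-92292388 on the plus strand for Kcne2, chr1:87394730-87394979 on the minus strand for Kcnj13, chr6:21215096-21215345 on the plus strand for Kcnd2 and chr11:33993194-33993443 on the minus strand for Kcnip1.
Kcne2: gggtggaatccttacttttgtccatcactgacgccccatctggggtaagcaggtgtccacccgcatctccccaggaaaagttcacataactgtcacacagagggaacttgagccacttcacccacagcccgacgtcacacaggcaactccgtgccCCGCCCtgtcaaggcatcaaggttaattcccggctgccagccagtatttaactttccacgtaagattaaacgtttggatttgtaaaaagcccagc
Kcnj13: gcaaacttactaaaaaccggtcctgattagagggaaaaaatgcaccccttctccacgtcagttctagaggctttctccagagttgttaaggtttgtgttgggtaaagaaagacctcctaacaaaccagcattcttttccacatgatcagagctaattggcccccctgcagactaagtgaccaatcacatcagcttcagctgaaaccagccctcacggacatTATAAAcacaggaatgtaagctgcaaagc
Kcnd2: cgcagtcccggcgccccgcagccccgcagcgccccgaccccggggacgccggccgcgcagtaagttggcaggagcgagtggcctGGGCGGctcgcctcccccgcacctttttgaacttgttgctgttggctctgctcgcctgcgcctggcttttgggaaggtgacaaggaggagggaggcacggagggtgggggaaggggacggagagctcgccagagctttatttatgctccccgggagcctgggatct
Kcnip1: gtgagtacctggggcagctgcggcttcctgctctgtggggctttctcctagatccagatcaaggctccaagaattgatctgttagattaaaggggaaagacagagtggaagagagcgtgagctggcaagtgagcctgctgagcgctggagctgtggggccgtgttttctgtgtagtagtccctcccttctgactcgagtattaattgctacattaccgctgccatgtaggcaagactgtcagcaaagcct
The window of Kcne2 holds a GC box on the reverse strand, that of Kcnd2 a GC box on the forward strand, and that of Kcnj13 a TATAAA close to the start; no motif searched was found in that of Kcnip1. The search covered both strands for TATAAA, the GC box GGGCGG, the core of OTX sites TAATCC, the cyclic AMP response element TGACGTCA and the E-box CACGTG, of which none contains another. Windows were found for 51 of the 73 genes, 69 in all, and for 32851 starts over all genes. Among the potassium channel windows 49.3% held GGGCGG, against 32.7% of all windows, and 2.90% held TATAAA, against 12.4%. TAATCC was in 1.45% and 6.25%, CACGTG in 8.70% and 6.02%, and TGACGTCA in 0 and 1.55%. The median GC content was 60.8% in potassium channel windows and 52.4% in all windows.

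Besides the rows of annotated genes, the files hold loci assembled from the reads, and for 63 of the 73 genes such a locus was present in all 6 libraries. These loci give another level for the same gene, and 36 of the 63 genes differed by no more than 0.5 log2 between the levels in every library, while 11 differed by over 1 log2 in some library. Of the 73 genes 33 were split into more than 1 locus in some library. Only the highest locus was used, so different pieces of a gene may be compared between libraries. Kcnip4 had 12 to 23 loci per library, Kcnh6 1 to 3 and Kcnc4 1 in each. For Kcnc4 the loci gave 12.7, 11.9 and 9.65 TPM in S156A and 37.0, 36.5 and 29.9 TPM in WT, a log2 difference of -1.52 (limma adjusted p = 0.026), and 41 of 15390 genes, or 0.266%, were called with them. The assembled locus of Kcnma1 had 26.7, 21.5 and 17.5 TPM in S156A and 24.7, 25.6 and 19.4 TPM in WT, so the wide spread of its annotated row between libraries was not seen there. Kcnip4, a Shal channel subunit with the most negative annotated difference, is another such case. Its annotated row had 0.132, 0.229 and 12.5 TPM in S156A and 6.33, 16.3 and 10.3 TPM in WT, and its locus had 5.29, 7.94 and 13.4 TPM in S156A and 13.3, 17.9 and 12.3 TPM in WT. Of the 63 genes, 54 had the same sign by both measures. Groups did not overlap in the loci for 19 genes lower in S156A and 2 higher, where the shares over all genes fitted were 7.25% and 14.5%. An unadjusted p under 0.05 was reached by 17 genes lower and 1 higher, against 5.98% and 9.02% of all genes fitted. For Kcnk10 the log2 difference was smaller in the loci, at 0.32. Kcnk10, Kcnj13, Kcnh6 and Kcnh8, which were apart in the annotated rows, overlapped in the loci, and Kcnc1 was apart in the loci alone.

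**Figure D4:**
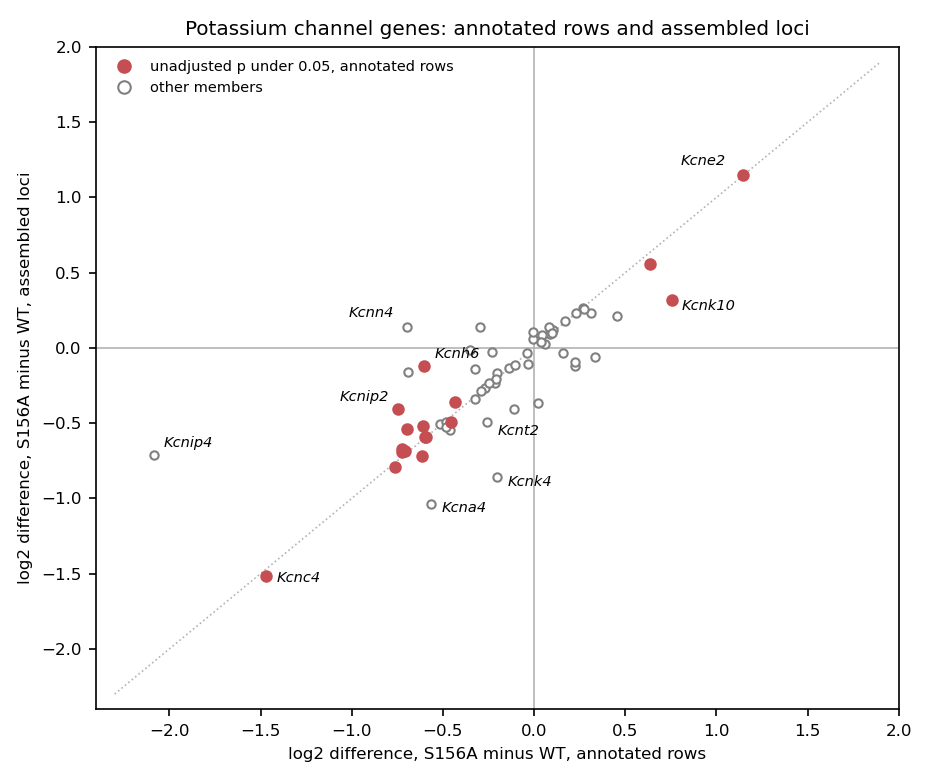
Log2 difference, S156A minus WT, of 63 potassium channel genes from the annotated rows (horizontal axis) and from the assembled loci (vertical axis), both on the log2(TPM + 1) scale; filled points had an unadjusted p under 0.05 in the annotated rows and the dotted line marks equal values. Kcnc4 lies on the line, at -1.47 and -1.52, and Kcnip4 lies far off it.

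Several potassium channel genes were highest in the muscle-rich libraries. In the annotated rows the 2 highest values were those of S156A library 1 and WT library 3 for 9 genes, namely Kcna5, Kcne4, Kcnh3, Kcnj8, Kcnk5, Kcnk6, Kcnma1, Kcnn4 and Kcnu1. The second highest value was 2.38 times the third for Kcne4, 2.05 for Kcnn4, 1.81 for Kcnma1 and 1.51 for Kcnk6. It was only 1.19 times the third for Kcnk5, 1.13 for Kcnh3, 1.07 for Kcna5, 1.02 for Kcnu1 and 1.01 for Kcnj8. The share of all tested genes with this order was not counted. Kcne4, an auxiliary subunit, had 3.60, 1.51 and 0.840 TPM in S156A and 1.02, 1.33 and 5.54 TPM in WT. Kcnu1, a pore known from sperm, had 2.77, 2.72 and 2.08 TPM in S156A and 1.93, 1.93 and 8.31 TPM in WT. The pattern was not seen in the assembled loci of Kcnma1, given above, Kcnu1 or Kcnj8. Kcnu1 had 5.26, 9.52 and 8.73 TPM there in S156A and 6.97, 6.28 and 7.31 TPM in WT. Kcnj8 had 15.0 and 13.2 TPM in S156A libraries 1 and 2 and 12.8 TPM in WT library 3. The loci of Kcna5, Kcnh3 and Kcnn4 kept the pattern. Kcne4, Kcnk5 and Kcnk6 had no locus in some libraries, and the highest Kcnk5 value was 4.08 TPM in S156A library 3. Kcnh3 and Kcnk5 had log2 differences of 0.45 and 0.44 with these libraries and 0.59 and 0.46 without both. The groups of all 9 overlapped, and the part of muscle RNA in these values was not tested.

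Markers of other cell types and regions differed in level as well. Of the 8 neuronal markers 6 were lower in S156A and none was called by limma, with 4 lower at an unadjusted p under 0.05; their sums are given above. Of 9 markers of hindbrain and spinal cord 8 were lower, and Hoxb5 and Slc6a5 were called. These 9 summed to 49.7 to 63.0 TPM in S156A and 105 to 127 TPM in WT, with none at 0. Of 10 markers of the oligodendrocyte lineage 7 were higher, 6 of them without overlap, and Gpr17 was called. These 10 summed to 328 to 440 TPM in S156A and 258 to 293 TPM in WT. Without the most abundant marker of each list, the hindbrain and spinal sums were 31.3 to 42.9 TPM in S156A and 71.0 to 80.4 TPM in WT. The oligodendrocyte sums were then 244 to 317 TPM in S156A and 149 to 159 TPM in WT. Of 7 pituitary markers 4 were tested, all higher and 3 of them without overlap. None was called by limma, with 3 at an unadjusted p under 0.05. The 7 summed to 169 to 358 TPM in S156A and 9.79 to 135 TPM in WT. Without Gh, the most abundant, the other 6 summed to 30.1 to 47.7 TPM in S156A and 9.79 to 37.5 TPM in WT, which overlapped. Gh, Prl, Pou1f1 and Cga were each listed at 0 in at least 1 library. Of 8 mural cell markers 5 were higher, with sums of 251 to 328 TPM in S156A and 180 to 275 TPM in WT. Of 6 endothelial markers 5 were higher, with sums of 246 to 258 TPM in S156A and 175 to 233 TPM in WT. Without Cldn5, the most abundant of the 6, the other 5 summed to 68.6 to 127 TPM in S156A and 71.7 to 112 TPM in WT, which overlapped. Limma called none of the mural or endothelial markers, with 2 mural and 1 endothelial marker higher at an unadjusted p under 0.05. Over all tested genes 5.5% were lower and 8.41% higher at an unadjusted limma p under 0.05. Without overlap 7.05% of all tested genes were lower and 13.7% higher. The part of all these cells and regions in the levels of Kcnc4 and the other potassium channel genes was not tested.

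Genes that act with these channels were described from 3 lists. Of 24 partners that anchor or modify channels, 22 were tested and none was called; 14 were lower and 8 higher in S156A, and the median of their log2 differences was -0.13. Lgi2, a secreted ligand of the Adam22 family of receptors, had 14.5, 10.6 and 8.90 TPM in S156A and 24.2, 23.5 and 23.2 TPM in WT (log2 difference -1.02, SE 0.19, limma adjusted p = 0.094). Adam23 had a log2 difference of -0.73, Sgk1, a kinase that regulates ion channels, of 0.36, and Lingo1 of -0.32, none of which passed. By unadjusted limma p under 0.05, 6 of the 22 were lower, or 27.3%, against 5.5% of all tested genes. By the same measure 1 was higher, or 4.55%, against 8.41% of all tested genes.

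Hyperpolarization-activated channels of the Hcn family carry potassium and sodium and oppose strong hyperpolarization. With the cyclic nucleotide-gated channels and the Hcn trafficking subunit Pex5l they made a list of 11, of which 5 were tested. All 5 were lower in S156A and none was called by limma. An unadjusted limma p under 0.05 was reached by 3, or 60%, against 5.5% of all tested genes. Hcn2 had 17.9, 17.9 and 24.1 TPM in S156A and 40.0, 38.5 and 33.3 TPM in WT (log2 difference -0.88, SE 0.16, limma adjusted p = 0.094). Pex5l had 1.27, 1.89 and 1.58 TPM in S156A and 4.48, 5.31 and 5.31 TPM in WT (log2 difference -1.23, SE 0.23, limma adjusted p = 0.095). In both genes no S156A value reached the lowest WT value. Hcn3 had a log2 difference of -0.61 and Hcn4 of -0.30.

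Potassium pumps and cotransporters keep the gradient that the channels use. Of 23 genes 19 were tested, none was called by limma, and 10 were lower and 9 higher in S156A. Of these, 4 lower, or 21.1%, and 2 higher, or 10.5%, had an unadjusted limma p under 0.05. Over all tested genes these shares were 5.5% and 8.41%. The median log2 difference was -0.09, and 0.021 without both muscle-rich libraries. Fxyd7, a brain regulator of the pump, had 53.8, 30.3 and 60.4 TPM in S156A and 174, 156.3 and 133 TPM in WT (log2 difference -1.71, SE 0.25, limma adjusted p = 0.066). Atp1b1 had a log2 difference of -0.92 (limma adjusted p = 0.070). In Fxyd7 every S156A value lay below every WT value, and neither gene passed the test.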

How the data were processed

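RNA-seq tables of 6 libraries were used, 1 per library. The deposited TPM and FPKM values and read coverage are StringTie gene abundances, per the file headers. The submitters' processing notes name StringTie 2.1.5, HISAT2 2.2.1 and Trim Galore 0.6.6, as well as the build hg38, although the rows carry mouse genes. Of the 73 members, 2 start within 1000 bases of their GRCm38 start, so coordinates are given as the files have them. How strand was set, the annotation and any filters are not stated, although the kit is directional per the labels' protocols. The files hold no counts, so depth was estimated as coverage divided by FPKM and no counting interval is given. Each file holds annotated rows and assembled loci: the assembled rows by themselves sum to 1e+06 TPM in each library, and the annotated rows, given besides, to 93.1% to 95.8% of that number, so the sets were never added. Annotated rows sharing an identifier were summed.

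Values were tested as log2(TPM + 1) for genes averaging at least 1 TPM with limma 3.58.1 in R 4.3.3 (trended eBayes, two-sided, all 6 libraries, no covariates), with Benjamini-Hochberg adjustment over 18893 genes and calls at an adjusted p below 0.05. A fold change on this scale understates the change of low genes. Each library is a separate pool of brains by its label, and nothing says that litters differed, so p-values measure the spread between these pools. The code was tested on simulated data. Alternatives used a minimum of 5 TPM or none, another pseudocount (0.1 or 5), FPKM, other scalings (annotated rows only, trimmed means, quantiles), other eBayes settings, library weights, a replicate block, or left out each library in turn or both muscle-rich ones. Protein sequences were not analysed here. For an assembled locus, the level was that of the highest assembled row overlapping the gene more than any other gene; this alternative was chosen after seeing the data.

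Full values are given for genes called and for the 8 members with the smallest unadjusted p in each direction, and levels for the most abundant member of each subfamily and the 3 members nearest the inclusion level on each side; any other gene named was chosen after its values were seen. From each companion list up to 4 genes with the smallest p were named. A few genes that these rules would name are not reported here. The members and lists were chosen with earlier results of these data known.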

Additional observations from a re-analysis of the deposited data

How the results depend on the processing

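Kcnc4 was lower in S156A under all 20 alternatives, at log2 differences of -1.56 to -1.20, but it did not pass the test under every one: the adjusted p from limma was 0.105 at -1.47 with no filter on low genes, and 0.0669 at -1.54 without both muscle-rich libraries. With 1 library left out it lay between -1.52 and -1.43, and 0 to 1 members were called. The number of members called was otherwise 0 with no filter, 0 without both muscle-rich libraries and 2 with library weights, where Kcne2 joined Kcnc4 (adjusted p = 0.0494, in a range of 0.0494 to 0.377 over the alternatives; 0.0115 to 0.257 for Kcnc4). At an unadjusted p below 0.05 limma had 14 members lower and 3 higher with no filter, and 11 lower and 3 higher without both muscle-rich libraries. Over all genes at that threshold 1363 were lower and 2001 higher of 36715 with no filter. Without both muscle-rich libraries 1154 were lower and 1987 higher of 18893. Over all genes the calls were 0 with no filter, 0 without both muscle-rich libraries and 309 with library weights, against 30. With 1 library left out the calls over all genes were 0 to 70. The median log2 difference over the members, -0.20, was -0.09 with a pseudocount of 5, -0.14 in the assembled loci and -0.29 by quantiles, and -0.2743 to -0.1297 with 1 library left out.

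Deviations from the group means correlated at -0.55, 0.19 and -0.41 for same-numbered libraries 1, 2 and 3. The highest correlation, 0.65, was that of S156A library 1 with WT library 3, the muscle-rich ones. Deviations within a group of 3 are tied together, so these values cannot show whether same-numbered libraries shared a litter or day. With the replicate number as a block 0 members were called, and Kcnc4 stood at -1.47 (adjusted p = 0.257); limma called 0 genes in all, with 818 lower and 1062 higher in S156A at an unadjusted p below 0.05.

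Library weights called 1 partner gene, 2 Hcn-related genes and 3 pump genes, and 1 pump gene was called without WT library 3. The median log2 difference of the partners was -0.28 to -0.10 and of the Hcn-related genes -0.82 to -0.46 with 1 library left out. That of the pumps was -0.0354 at a minimum of 5 TPM, -0.15 by trimmed means and -0.0329 with library weights. It was -0.1137 to -0.0138 with 1 library left out, and 0.0210, of the other sign, without both muscle-rich libraries. The causes were not tested. The genes near 1 TPM are limited by depth.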

Other observations

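Among the 19 genes matched by name that averaged below 1 TPM, Kcnc2, a gene of the Shaw family, had 0.309, 0.417 and 0.338 TPM in S156A and 0.624, 0.580 and 0.321 TPM in WT. Kcnj5, a G-protein-gated inward rectifier, had 0.580, 0.840 and 1.02 TPM in S156A and 1.497, 0.979 and 0.825 TPM in WT. Kcnq1, a pore that pairs with Kcne1 in heart and inner ear, had 0.130, 0.692 and 0.0599 TPM in S156A and 0.0589, 0.0857 and 0.135 TPM in WT. All 3 overlapped between the groups. Kcnj16 and Kcne3 were highest in WT library 3, at 2.03 and 2.62 TPM. That library was rich in muscle RNA, as was S156A library 1. In S156A libraries 1, 2 and 3 Kcnj16 had 0.299, 0.323 and 0.443 TPM and Kcne3 0.447, 0.0498 and 0.155 TPM.

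Of the 73 members, 16 overlap a tested gene on the opposite strand and 3 on the same strand. Kcnk2 holds Pdcd5-ps, which averaged 75.8 TPM, on its own strand, and Kcnmb4 holds Kcnmb4os2, which averaged 16.8 TPM, on the opposite strand. Whether the counting separated the reads of such genes from those of the channel gene is not stated.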
